A study of Homo sapiens with 12 samples.

Results

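IFITM1, IFITM2 and IFITM3 are small interferon-induced transmembrane proteins that lie next to each other on the short arm of chromosome 11. All probes annotated to any of the 3 genes were taken as members, which gave 1 probe for each gene, or 3 of the 47230 probes and 3 of the 20046 genes on the array. They were taken by gene name, by a rule that used no measured value, but the family itself was chosen with earlier results of these data known. They were measured on 12 human bead arrays of pluripotent cells or, on 1 array, of embryoid bodies, each holding the RNA of 1 sample. Samples 1 to 4 were MEG3-ON sublines and samples 5 to 9 were MEG3-OFF sublines of the human embryonic stem cell (hESC) line NTU1, labelled as having better and worse neural differentiation capacity, 2 arrays held the hESC line H9, which carries the MEG3-OFF label, and 1 held embryoid bodies (EB) labelled MEG3-ON, which per the study's text were grown from MEG3-ON NTU1 hESCs. MEG3 is a maternally expressed long non-coding RNA of the imprinted DLK1-DIO3 locus, and the sublines had been sorted by its level in quantitative PCR, and the labels name no deletion or treatment in any group. All hESCs were kept on mouse embryonic fibroblast feeders in serum-free medium. The sources used here do not give the age of the EB sample on the array or the passage of each array sample. The sublines come from 1 line, and nothing states that replicates were separate cultures, so p-values measure only the spread between these samples, which may be technical.

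IFITM proteins are restriction factors. They sit in cell membranes, where they hinder the fusion of enveloped viruses, among them influenza viruses, with the host cell. IFITM1 is found mainly at the plasma membrane, whereas IFITM2 and IFITM3 have a longer amino terminus that sorts them to endosomes and lysosomes. In most somatic cells their genes are switched on by interferon through the JAK-STAT pathway, which acts on interferon-stimulated response elements in promoters. Stem cells respond poorly to interferon but hold some interferon-stimulated genes, IFITM genes among them, at a high basal level. In the mouse, Ifitm3 and Ifitm1 are also known as early markers of germ-cell precursors.

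The core of the interferon-stimulated response element was sought in the promoters because it is the feature for which the family is named. The core was written as GAAANNGAAA, that is, a pair of GAAA sites with 2 bases between them, and was read on both strands in the 250 bases before each annotated start (RefSeq sequence, GRCh38.p14). The windows of IFITM1 (chr11:313790-314039, plus strand) and IFITM3 (chr11:320861-321110, minus strand) are shown 5′ to 3′, ending at the base before the start, with the GAAA sites of each match in capitals. The window of IFITM2 was not analysed here.
IFITM1: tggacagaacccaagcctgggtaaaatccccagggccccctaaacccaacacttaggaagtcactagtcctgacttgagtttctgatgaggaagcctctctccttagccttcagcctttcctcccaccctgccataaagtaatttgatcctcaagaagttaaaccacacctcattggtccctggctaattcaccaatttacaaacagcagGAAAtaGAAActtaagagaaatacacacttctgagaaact
IFITM3: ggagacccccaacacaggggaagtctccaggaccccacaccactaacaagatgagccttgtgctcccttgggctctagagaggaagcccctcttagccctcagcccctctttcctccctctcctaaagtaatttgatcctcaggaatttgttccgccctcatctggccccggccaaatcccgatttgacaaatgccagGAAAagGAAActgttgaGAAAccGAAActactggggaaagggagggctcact
The IFITM1 window held 1 match, from 40 to 31 bases before the start. The IFITM3 window held 2 matches, from 52 to 43 and from 35 to 26 bases before the start, all on the coding strand. Of 35116 promoter windows of this length, 1061 (3.02%) held the core at least once and 79 (0.225%) held it more than once. Among 68 windows of the interferon-stimulated genes listed below, 32 (47.1%) held it, and among 15 windows of genes that neighbour the cluster, 0 did. The windows of IFITM1 and IFITM3 aligned over 238 bases, of which 167 (70.2%) were identical. A match describes letters in a window and is not a measured binding site.

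The labels were first set against their own gene. MEG3 had a mean level of 13.84 ± 0.46 (SD, n = 4) in MEG3-ON and 5.38 ± 0.54 (SD, n = 5) in MEG3-OFF hESCs, where it was detected on 1 of 5 arrays, and 13.76 in the EB sample. H9 lay at 5.10 and 5.15, with MEG3 not detected. Levels are log2 bead signals after background correction and quantile normalization. POU5F1, the pluripotency factor OCT4, stood at 12.32 ± 0.07 (SD, n = 4) in MEG3-ON and 12.51 ± 0.13 (SD, n = 5) in MEG3-OFF hESCs, and at 7.74 in the EB sample. Between 16864 and 18796 probes per array were detected (detection p under 0.01), and for 9 of 9 NTU1 arrays the closest array by correlation was from the same group. The 12 arrays shared 1 chip, where each group took adjoining places, so that place and group cannot be told apart. Among MEG3-OFF and MEG3-ON hESCs, 199 of 10775 tested genes were higher and 187 lower in MEG3-OFF at an adjusted p under 0.05.

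All 3 members were bright on every array. Their detection p was 0 on all 12 arrays. Raw signals before normalization ran from 4552 to 10422 for IFITM1, from 5673 to 11068 for IFITM2 and from 5885 to 10745 for IFITM3 over the 11 undifferentiated arrays. In the EB sample they were 784, 3333 and 3223. The other family genes were at background, since the probe of IFITM5, a bone gene of the same cluster, and the 2 probes of the pseudogene IFITM4P were detected on 0 of 12 arrays, and IFITM10 was not analysed here. The 3 members are close in sequence and the probe sequences were not used here, so how far one probe also reads another member's RNA was not tested.

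IFITM1 (probe ILMN_1801246), the member of the plasma membrane, was lower in all MEG3-ON hESCs than in any MEG3-OFF or H9 sample. Its level in the MEG3-ON sublines was 12.21 in sample 1, 12.30 in sample 2, 12.54 in sample 3 and 12.12 in sample 4. In the MEG3-OFF sublines it was 12.94 in sample 5, 13.05 in sample 6, 13.13 in sample 7, 13.41 in sample 8 and 13.20 in sample 9. Both H9 arrays, at 13.38 and 13.11, fell inside the MEG3-OFF range, and the EB sample, at 9.45, was far below all others. The group means were 12.29 ± 0.18 (SD, n = 4) for MEG3-ON and 13.15 ± 0.18 (SD, n = 5) for MEG3-OFF.

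IFITM2 (probe ILMN_1673352), one of the endosomal members, separated the same groups by less. The MEG3-ON sublines had levels of 12.41, 12.47, 12.62 and 12.47 in samples 1 to 4. The MEG3-OFF sublines had levels of 12.97, 12.95, 12.71, 13.26 and 12.91 in samples 5 to 9. Sample 7 of MEG3-OFF, the lowest of its group, was 12.71 against 12.62 for the highest MEG3-ON sample. H9 was at 13.36 and 13.20, in the upper part of the MEG3-OFF range or above it, and the EB sample was at 11.75. The means were 12.49 ± 0.09 (SD, n = 4) in MEG3-ON and 12.96 ± 0.20 (SD, n = 5) in MEG3-OFF hESCs.

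IFITM3 (probe ILMN_1805750), the member with the best known action against influenza virus, was again lowest among undifferentiated cells in MEG3-ON. Samples 1 to 4 had levels of 12.39, 12.68, 12.90 and 12.65. Samples 5 to 9 had levels of 13.21, 13.08, 13.20, 13.48 and 13.11. The H9 arrays, at 13.22 and 13.13, lay within the MEG3-OFF range, and the EB sample was at 11.69. Group means were 12.65 ± 0.21 (SD, n = 4) and 13.22 ± 0.16 (SD, n = 5).

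**Figure D1:**
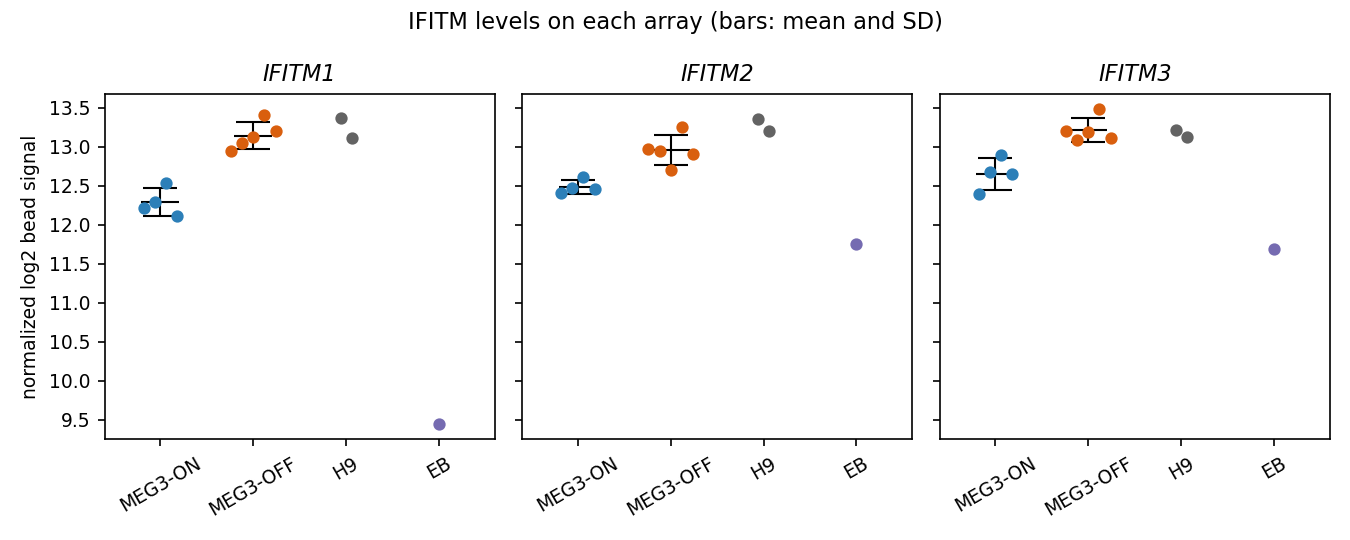
Normalized log2 bead signal (y axis) of IFITM1, IFITM2 and IFITM3 on each of 12 arrays, with the arrays of a group in replicate order from left to right and bars for the mean and SD of the 2 NTU1 groups. In each panel the 4 MEG3-ON points lie below all MEG3-OFF and H9 points and above the EB point, which for IFITM1 is at 9.45.

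For all 3 members the order of the arrays ran from EB over the 4 MEG3-ON sublines to a block of MEG3-OFF and H9 arrays. Sample 3 was the highest MEG3-ON array and sample 8 the highest MEG3-OFF array for each of the 3 genes. Within the upper block the order of MEG3-OFF and H9 arrays differed from gene to gene, and the steps between neighbouring arrays were mostly smaller than the SD of the MEG3-OFF group. The spread of the members among replicates was not unusual for the array. Their SD among MEG3-OFF sublines was above that of 42.0% (IFITM1), 50.1% (IFITM2) and 33.2% (IFITM3) of all tested genes. Among MEG3-ON sublines it was above that of 49.5%, 11.4% and 58.6%.

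The first question was which genes differed between sublines that had kept expression of the imprinted locus and those that had not. IFITM1 was 0.85 ± 0.13 (SE) higher in MEG3-OFF on the log2 scale, which is 1.81-fold (95% interval of the log2 difference 0.58 to 1.13, limma adjusted p = 0.00261). IFITM3 was 0.56 ± 0.13 higher, or 1.48-fold (95% interval 0.29 to 0.84, adjusted p = 0.0309). IFITM2 had a difference of 0.47 ± 0.12, or 1.38-fold (95% interval 0.21 to 0.73), whose adjusted p of 0.0513 missed the threshold. Thus 2 of 3 members were called higher, beside 1.85% of all tested genes called higher and 1.74% called lower. In the fit over each single probe the adjusted p was 0.00341, 0.0600 and 0.0379 for IFITM1, IFITM2 and IFITM3, again with 2 of 3 called, beside 1.51% of all probes. All 3 members had every MEG3-OFF value above every MEG3-ON value, which held for 4.56% of tested genes. In a bulk sample, fewer cells that express a gene and less RNA per cell cannot be told apart.

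IFITM1 kept its call without any 1 array, with adjusted p between 0.00235 and 0.0174. The call of IFITM3 was lost without any 1 of samples 1, 2 and 4 of MEG3-ON or samples 6, 7 and 9 of MEG3-OFF, where the difference was 0.47 to 0.60 and the adjusted p 0.0519 to 0.0952. IFITM2 passed the threshold without sample 5 (0.46, adjusted p = 0.0436) or sample 7 (0.53, adjusted p = 0.0422) of MEG3-OFF. IFITM2 passed also under 7 other settings, among them the values as normalized by the authors (0.46, adjusted p = 0.0250). With the methods' t-test after Benjamini-Hochberg adjustment neither IFITM1 (adjusted p = 0.0604) nor IFITM3 (adjusted p = 0.141) passed, and 32 genes were called in place of 386.

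The log2 signal of IFITM1 differed between the groups by more than that of the other members. The difference between members on the same array was compared between groups, a comparison chosen after the values had been seen. Its p-values are therefore no independent support. IFITM1 minus IFITM2 ran from -0.35 to -0.08 in MEG3-ON and from -0.03 to 0.42 in MEG3-OFF hESCs, a change of 0.39 (exact permutation test over 126 splits, two-sided p = 0.0159, adjusted over 3 pairs 0.0357). IFITM1 minus IFITM3 changed by 0.29, from a range of -0.53 to -0.18 to one of -0.27 to 0.09 (exact permutation p = 0.0238, adjusted 0.0357). IFITM2 minus IFITM3 changed by -0.09, with p = 0.413 in the same exact test.

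H9, an independent and widely used hESC line, had IFITM levels near those of the MEG3-OFF sublines. Against MEG3-OFF, the difference was 0.10 for IFITM1 (95% interval -0.25 to 0.44, adjusted p = 0.674), 0.32 for IFITM2 (95% interval 0.00199 to 0.65, adjusted p = 0.111) and -0.04 for IFITM3 (95% interval -0.38 to 0.29, adjusted p = 0.859). By limma 0 of 3 members were called, and 1 of 3, IFITM2, had an unadjusted p under 0.05, beside 13.2% of all tested genes called higher and 18.2% called lower. The upper bounds for IFITM1 and IFITM3, 0.44 and 0.29, lie below the point estimates of 0.85 and 0.56 between the NTU1 groups. The interval of IFITM2 holds its point estimate of 0.47. Those estimates have intervals of their own. For IFITM3 it was 0.287 to 0.837, which overlaps the H9 interval ending at 0.294, and for IFITM1 it was 0.58 to 1.13, which does not overlap. Both comparisons share the MEG3-OFF arrays, and whether the differences differ from each other was not tested. These 2 H9 arrays do not show that H9 and MEG3-OFF hESCs are alike.

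Against MEG3-ON, all 3 members were higher in H9. IFITM1 was 0.95 ± 0.17 (SE) higher, or 1.93-fold (adjusted p = 0.00156). IFITM2 was 0.79 ± 0.15 higher, or 1.73-fold (adjusted p = 0.00285), and IFITM3 was 0.52 ± 0.16 higher, or 1.43-fold (adjusted p = 0.0287). These 3 of 3 calls stand beside 12% of tested genes called higher and 17.1% called lower, and beside 21.9% of genes whose H9 values all lay above the MEG3-ON values, as they did for each member. The call of IFITM3 was lost without sample 1 of MEG3-ON (0.43, adjusted p = 0.0624), without the first H9 array (0.48, adjusted p = 0.121) and without the second (0.56, adjusted p = 0.110). Both comparisons with MEG3-ON use the same 4 arrays, so a low value on these arrays enters each of them, and H9 differs from NTU1 in cell line as well as in MEG3.

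**Figure D2:**
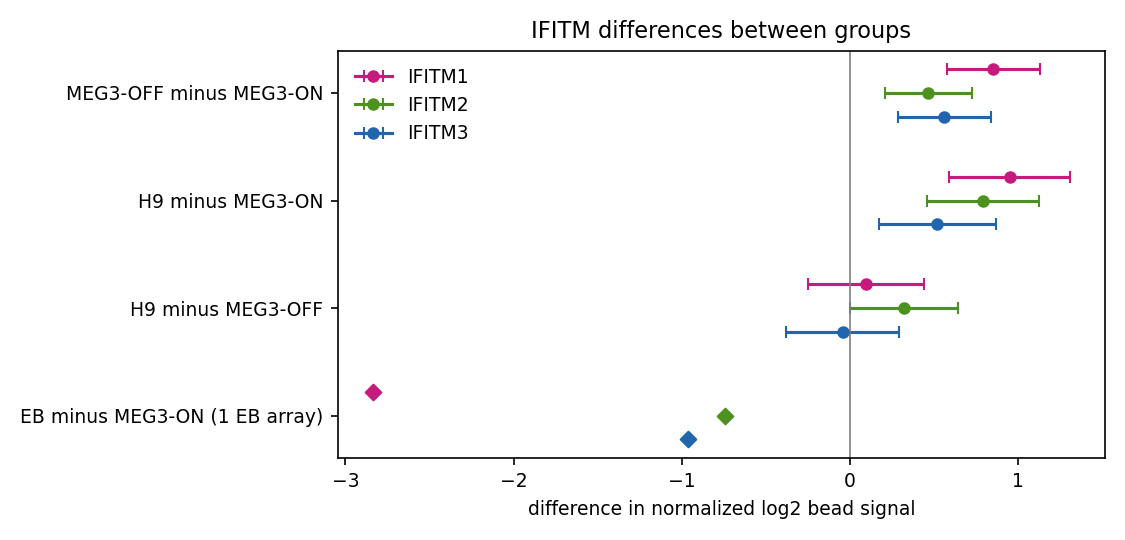
Difference in normalized log2 bead signal (x axis) for IFITM1, IFITM2 and IFITM3 in 4 comparisons, with 95% intervals from limma for the replicated groups and diamonds without an interval for the single EB array. The differences from MEG3-ON are above 0 for MEG3-OFF and H9, from 0.47 to 0.95, and below 0 for EB, where IFITM1 is at -2.84.

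The EB sample, in which stem cells have begun to differentiate in suspended aggregates, was the lowest of the 12 arrays for every member. The IFITM1 difference from the mean of MEG3-ON hESCs was -2.84 on the log2 scale, a 7.15-fold lower signal or 13.98% of the MEG3-ON level. Among 10509 genes detected both in EB and in MEG3-ON, its difference was number 30 from the lowest. IFITM2 had a difference of -0.74 (1.67-fold lower, 59.9% of MEG3-ON) and IFITM3 of -0.96 (1.95-fold lower, 51.4% of MEG3-ON). With 1 EB array there is no replicate check and no test. Past 2-fold lower lay 1 of 3 members, beside 7.75% of all genes lower and 9.09% higher by that rule, counted over 11763 genes detected in EB or on at least 2 of 4 MEG3-ON arrays. IFITM3 also passed 2-fold under median scaling and without sample 1 of MEG3-ON (-1.05), so that 2 of 3 were then past it. The EB value was below the lowest MEG3-ON sample by far more than the MEG3-ON range of 12.12 to 12.54 for IFITM1. For IFITM2 the EB level of 11.75 stood against a MEG3-ON range of 12.41 to 12.62, and for IFITM3 the level of 11.69 against 12.39 to 12.90.

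In the EB sample pluripotency genes were mostly lower, as the members were, while stromal and trophoblast and amnion markers were mostly higher. Where a gene was detected on no array of one group, that group has only a bound, and such a gene was included only through the group where it is high. Its difference is given as at least N-fold, set against the higher of the gene's own signal and the lowest signal detected on each array. Of 14 pluripotency genes, 10 were past 2-fold lower, among them POU5F1 (-4.58), and LEFTY1 and NANOG, not detected in EB, were at least 25.7-fold and at least 20.3-fold lower. Their summed linear level was 29348 against 69198 to 73785 in MEG3-ON. Of 13 fibroblast and stromal markers, 8 were past 2-fold higher, with a summed level of 17580 against 7704 to 12397. ACTA2 (3.37) was among them, and COL3A1 and LUM, not detected in MEG3-ON, were at least 26.2-fold and at least 4.85-fold higher. Of 5 trophoblast and amnion markers, 4 were past 2-fold higher, among them HAND1 (5.33), with a summed level of 5676 against 463 to 2189. Of 4 endothelial and blood markers, 1, TEK (-1.02), was past 2-fold lower, while PECAM1, CDH5, GATA1 and the globin genes HBE1, HBG1 and HBZ were detected on no array. Over all genes, 7.75% were past 2-fold lower and 9.09% higher in EB. The part of cell composition in the IFITM difference was not tested.

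The interferon-stimulated genes other than IFITM gave a mixed picture in MEG3-OFF hESCs. Of the 60 listed genes, 17 were detected on none of the 12 arrays, RSAD2, USP18, IFIT2, IFIT3, OAS2 and OASL among them, and 22 were detected on all. Of 36 tested between MEG3-OFF and MEG3-ON, 2 were higher and 0 lower (limma, 7 higher and 2 lower with p under 0.05 before adjustment). Of all tested genes, 1.85% were called higher and 1.74% lower. The median difference was 0.09, against 0.02 over all genes. LY6E, a lipid-anchored surface protein, rose from 11.06 ± 0.20 (SD, n = 4) to 11.75 ± 0.31 (SD, n = 5), a difference of 0.69 (adjusted p = 0.0360). SHFL, an inhibitor of programmed ribosomal frameshifting, rose from 7.84 ± 0.32 (SD, n = 4) to 8.49 ± 0.24 (SD, n = 5), a difference of 0.65 (adjusted p = 0.0481). The lowest p among the others belonged to RIGI, a sensor of viral RNA, with a difference of -0.44 (adjusted p = 0.0973), and ISG20, an exonuclease, with 0.45 (adjusted p = 0.126). The difference of IFITM1, 0.85, was above that of each of the 36 genes, and those of IFITM3 and IFITM2, 0.56 and 0.47, were below LY6E and SHFL but above the remaining 34. ISG15, a ubiquitin-like modifier, had a difference of 0.19 (adjusted p = 0.441), IFIT1, which binds foreign RNA, 0.11 (adjusted p = 0.733), and MX1, a dynamin-like antiviral GTPase, 0.01 (adjusted p = 0.993). The last 3 were named for their role after their values were seen.

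**Figure D3:**
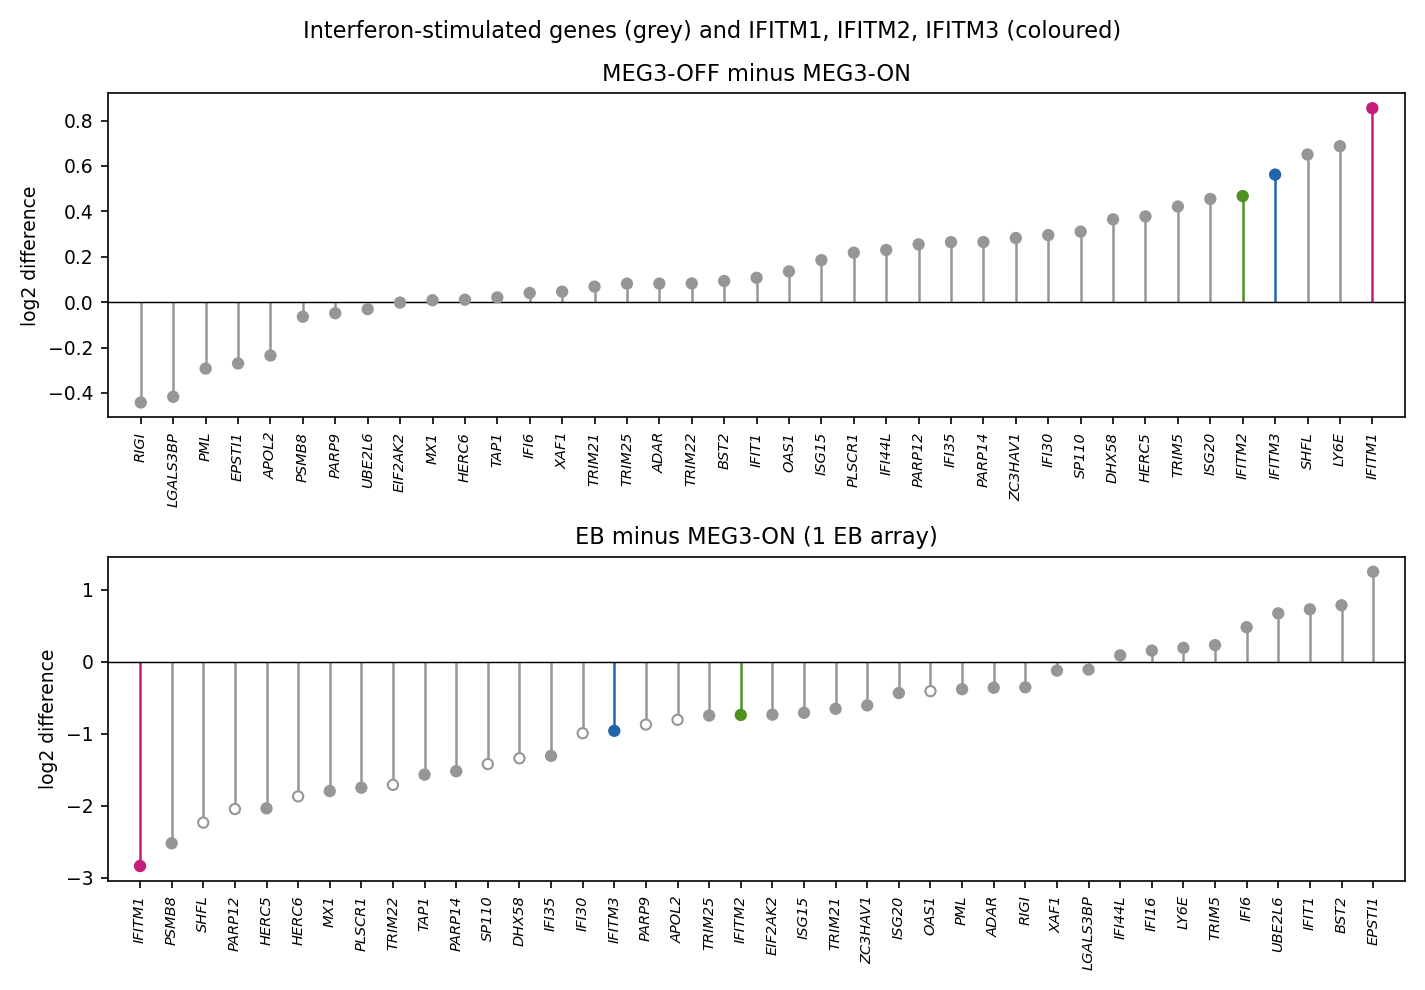
Log2 difference (y axis) of each tested interferon-stimulated gene (grey) and of the members (coloured), sorted by value, for MEG3-OFF minus MEG3-ON above and for the single EB array minus MEG3-ON below. Open circles are genes not detected in EB, whose signal there is at background, so that their order has no meaning. IFITM1 is at the upper end in the first panel, at 0.85, and at -2.84 in the second.

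In H9 the members' level came with another set of interferon-stimulated genes. Against MEG3-ON, 9 of 39 were higher and 2 lower, beside 12% and 17.1% of all tested genes. The median difference was 0.35 against -0.03 over all genes, or 0.23 with genes detected in only one of the groups at their bound. Those with the largest measured differences were TRIM22 (1.62), HERC6 (1.09), IFI30 (1.08), EPSTI1 (1.02), LGALS3BP (-1.01) and HERC5 (0.90). Among those that missed the threshold, PARP12 (0.47, adjusted p = 0.0596) and ADAR (-0.33, adjusted p = 0.0843) had the lowest p. Against MEG3-OFF, 10 of 39 were higher and 4 lower, beside 13.2% and 18.2% of all tested genes, with a median of 0.17 against -0.07 over all genes. Among those called were TRIM22 (1.54), EPSTI1 (1.29), HERC6 (1.08) and LY6E (-0.90). MX2 and IFI16, with 0 of 5 MEG3-OFF arrays above the detection limit, were at least 1.43-fold (adjusted p = 0.00862) and at least 1.31-fold higher (adjusted p = 0.0155). LGALS3BP (-0.59, adjusted p = 0.0501) and TRIM5 (-0.55, adjusted p = 0.0534) missed it by least. SHFL was also lower in H9 than in MEG3-OFF (-0.56, adjusted p = 0.0474). Hence LY6E and SHFL, which were higher in MEG3-OFF than in MEG3-ON as IFITM1 and IFITM3 were, were lower in H9 than in MEG3-OFF, where no member was called.

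In the EB sample 13 of 37 interferon-stimulated genes were past 2-fold lower and 1 was past 2-fold higher, beside 7.75% and 9.09% of all genes. The median difference was -0.71 against 0.04 over all genes. With the 10 genes not detected in EB at their bound, 10 of 37 were past 2-fold lower and the median was -0.45. PSMB8, a subunit of the immunoproteasome, was lower by a measured -2.52 on the log2 scale, and SHFL and PARP12, not detected in EB, were at least 4.62-fold and at least 3.43-fold lower. EPSTI1 (1.25) was the gene past 2-fold higher.

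The 6 interferon genes on the list were not detected in any sample. IFNA1, IFNB1, IFNE, IFNK, IFNG and IFNL1 were at background on all 12 arrays, and other interferon genes were not examined. Of 16 tested genes of interferon signalling, 1 was higher and 0 lower in MEG3-OFF (limma, 3 higher and 1 lower with p under 0.05 before adjustment). The median difference was 0.10. The gene called was SOCS1, an inhibitor of JAK kinases that is itself induced by the pathway, which rose from 7.53 ± 0.30 (SD, n = 4) to 8.52 ± 0.33 (SD, n = 5), a difference of 0.99 (adjusted p = 0.0116). PIAS1, an inhibitor of STAT proteins, had a difference of -0.57 (adjusted p = 0.0629), and IFNAR2, a chain of the type I receptor, 0.38 (adjusted p = 0.0728). IRF9, a DNA-binding factor of the type I response named here for its role after its value was seen, had a difference of -0.04 (adjusted p = 0.853). In H9 against MEG3-OFF 2 of 19 were higher, JAK1 (0.95), detected on 1 of 5 MEG3-OFF arrays, and PIAS1 (0.93), and 3 lower, IFNLR1 (-1.38), IRF1 (-0.84) and IRF3 (-0.50). IL10RB (-0.40, adjusted p = 0.0536) and IFNGR1 (0.50, adjusted p = 0.0553) did not pass. In H9 against MEG3-ON 1 was higher, JAK1, which was detected on no MEG3-ON array and was at least 1.35-fold higher (adjusted p = 0.0308), and 1 lower, IFNLR1 (-1.21), and IRF7 (-0.63, adjusted p = 0.0667) and IRF2 (0.44, adjusted p = 0.0727) did not pass. In the EB sample IFNLR1 (-1.88), SOCS1 (-1.42) and PTPN6, not detected in EB and at least 3.75-fold lower, were past 2-fold lower and IL10RB (1.21) past 2-fold higher among 17. Over all tested genes, 1.85% were called higher and 1.74% lower in MEG3-OFF against MEG3-ON. For H9 these shares were 13.2% and 18.2% against MEG3-OFF, and 12% and 17.1% against MEG3-ON. Past 2-fold in EB lay 9.09% of all genes higher and 7.75% lower.

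IFITM proteins are modified and held in place by other proteins, and these were examined as a list. Of 17 tested between MEG3-OFF and MEG3-ON, 1 was higher and 1 lower, with a median of 0.01. VAPA, a membrane protein of the endoplasmic reticulum to which IFITM3 binds, was 0.49 higher (adjusted p = 0.0482), and ABHD16A, which removes palmitate from IFITM proteins, was lower (-0.50, adjusted p = 0.0303). CD9, a tetraspanin, had a difference of 0.45 (adjusted p = 0.0597) and NEDD4L, a ubiquitin ligase, -0.46 (adjusted p = 0.182). In H9 against MEG3-ON 4 of 19 were higher, CAV1 (1.03), CD9 (0.94), ZMPSTE24 (0.63) and NEDD4, and 4 were lower, ZDHHC7 (-0.56), a palmitoyl transferase, ABHD16A (-0.52), CD81 (-0.42) and KDM1A (-0.37). NEDD4, which marks IFITM3 with ubiquitin, was detected on both H9 arrays and on none of the NTU1 groups, and was at least 1.63-fold higher than in MEG3-ON (adjusted p = 0.00161) and at least 1.62-fold higher than in MEG3-OFF (adjusted p = 0.00150). ZDHHC1 (-0.49, adjusted p = 0.0506) and ZDHHC2 (0.77, adjusted p = 0.0530) did not pass. In H9 against MEG3-OFF 4 were higher and 3 lower, among them CAV1 (1.47), NEDD4, ZDHHC1 (-0.69), ZMPSTE24 (0.64), CD81 (-0.60) and ZDHHC7 (-0.57), and KDM1A (-0.34, adjusted p = 0.0517) and ZDHHC2 (0.68, adjusted p = 0.0692) did not pass. In the EB sample CAV1 (-2.79) and CD9 (-2.47) were past 2-fold lower and ZDHHC1 (1.10) past 2-fold higher among 18. The shares over all tested genes were 1.85% higher and 1.74% lower in MEG3-OFF against MEG3-ON. They were 13.2% and 18.2% for H9 against MEG3-OFF, and 12% and 17.1% for H9 against MEG3-ON. In EB they were 9.09% and 7.75% past 2-fold.

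No germ-cell gene was called between the NTU1 groups. Of 6 tested primordial germ cell genes 0 were called by limma, with 1 higher and 1 lower at an unadjusted p under 0.05, SOX15 (0.36, adjusted p = 0.106) and DPPA3 (-0.42, adjusted p = 0.202). DPPA3, known in the mouse as Stella, was higher in H9 than in MEG3-OFF (1.78) and MEG3-ON hESCs (1.36). KIT (0.56) was also higher in H9 than in MEG3-OFF and DAZL, detected on no MEG3-ON array, was at least 1.15-fold higher than there (adjusted p = 0.0489), while ALPL was lower in both (-0.94 and -0.92). PRDM14 and DPPA3, not detected in the EB sample, were at least 18.4-fold and at least 3.29-fold lower there. Over all tested genes, 1.85% were called higher and 1.74% lower in MEG3-OFF against MEG3-ON. For H9 these shares were 13.2% and 18.2% against MEG3-OFF, and 12% and 17.1% against MEG3-ON. Past 2-fold in EB lay 9.09% of all genes higher and 7.75% lower.

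Pluripotency genes and markers of other cells were set beside the IFITM difference of the NTU1 groups. Of 14 pluripotency genes, 2 were higher in MEG3-OFF, UTF1 (1.98, adjusted p = 1.1e-05) and NANOG (0.77, adjusted p = 0.0204), and L1TD1 (0.36, adjusted p = 0.0840) and CRIPTO (0.63, adjusted p = 0.0846) did not pass. Their summed level was 71550 to 79204 in MEG3-OFF, against 69198 to 73785 in MEG3-ON. In H9 against MEG3-ON 3 of 14 were higher, LEFTY1 (1.45), UTF1 (1.29) and L1TD1 (0.59), and 3 lower, NANOG (-2.21), SALL4 (-0.80) and LIN28A (-0.40), while POU5F1 (0.39, adjusted p = 0.0566) and SOX2 (-0.48, adjusted p = 0.0584) did not pass. In H9 against MEG3-OFF 1 was higher, LEFTY1 (1.35), and 4 lower, NANOG (-2.98), UTF1 (-0.68), SALL4 (-0.54) and LIN28A (-0.40), while LIN28B (0.43, adjusted p = 0.0909) and CRIPTO (-0.43, adjusted p = 0.182) did not pass. Of 9 tested fibroblast and stromal markers, 0 were higher and 1 lower in MEG3-OFF, ACTA2 (-0.98, adjusted p = 0.0202), with a summed level of 7413 to 9510 against 7704 to 12397. Of 3 tested endothelial and blood markers and 3 tested trophoblast and amnion markers, 0 were called by limma, and before adjustment 1 of the first and 0 of the second had a p under 0.05. The summed level of the trophoblast and amnion list was 396 to 2052 in MEG3-OFF and 463 to 2189 in MEG3-ON. In H9 against MEG3-ON 2 of 5 endothelial and blood markers were higher, CD34 (0.69) and KDR, which was detected on no MEG3-ON array and was at least 2.28-fold higher (adjusted p = 0.000580). Of 6 trophoblast and amnion markers 1 was lower, TFAP2A, which was not detected in H9 and was at least 5.95-fold lower (adjusted p = 0.0253). Of 10 fibroblast and stromal markers 1 was higher, THY1 (0.62), and 4 were lower, among them COL5A1 (-0.97) and PDGFRB, not detected in H9 and at least 1.82-fold lower (adjusted p = 0.00829). The shares over all tested genes were 1.85% higher and 1.74% lower in MEG3-OFF against MEG3-ON. They were 13.2% and 18.2% for H9 against MEG3-OFF, and 12% and 17.1% for H9 against MEG3-ON. The part of other cells in the IFITM values was not tested.

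None of the tested genes around the cluster was called between the NTU1 groups. Of the 20 protein-coding genes next to it in the order of the RefSeq table, 10 on each side, 12 were tested. That order also places some genes of alternate scaffolds, such as OR8U9, among the neighbours, and none of these was tested. By limma 0 were called in MEG3-OFF against MEG3-ON, beside 1.85% of all tested genes called higher and 1.74% called lower. At such shares 12 genes are too few to set the neighbours apart from other genes. Before adjustment the limma p was under 0.05 for 2 higher and 0 lower genes, and the median difference was 0.07. These 2 were SIGIRR (0.34, adjusted p = 0.0833) and B4GALNT4 (0.30, adjusted p = 0.180), the gene nearest to IFITM3 among those tested. PGGHG, the nearest tested gene on the side of IFITM2, had a difference of 0.31 (adjusted p = 0.414). In H9 against MEG3-OFF 5 of 12 were lower, PGGHG (-1.03), B4GALNT4 (-0.90), PTDSS2 (-0.63), RASSF7 (-0.51) and LRRC56, and 0 higher, with a median of -0.46. Beside them, 18.2% of all tested genes were called lower and 13.2% higher. In H9 against MEG3-ON 3 were lower, B4GALNT4 (-0.60), PTDSS2 (-0.58) and LRRC56, beside 17.1% of all tested genes, while all 3 members were higher, beside 12%. LRRC56 was not detected in H9 and was at least 1.34-fold lower than in MEG3-OFF (adjusted p = 0.00806) and at least 1.29-fold lower than in MEG3-ON (adjusted p = 0.0149). In the EB sample SIGIRR, not detected there, was at least 2.94-fold lower and LRRC56 (1.11) past 2-fold higher among 11. Beside them, 7.75% of all genes were past 2-fold lower and 9.09% higher.

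**Figure D4:**
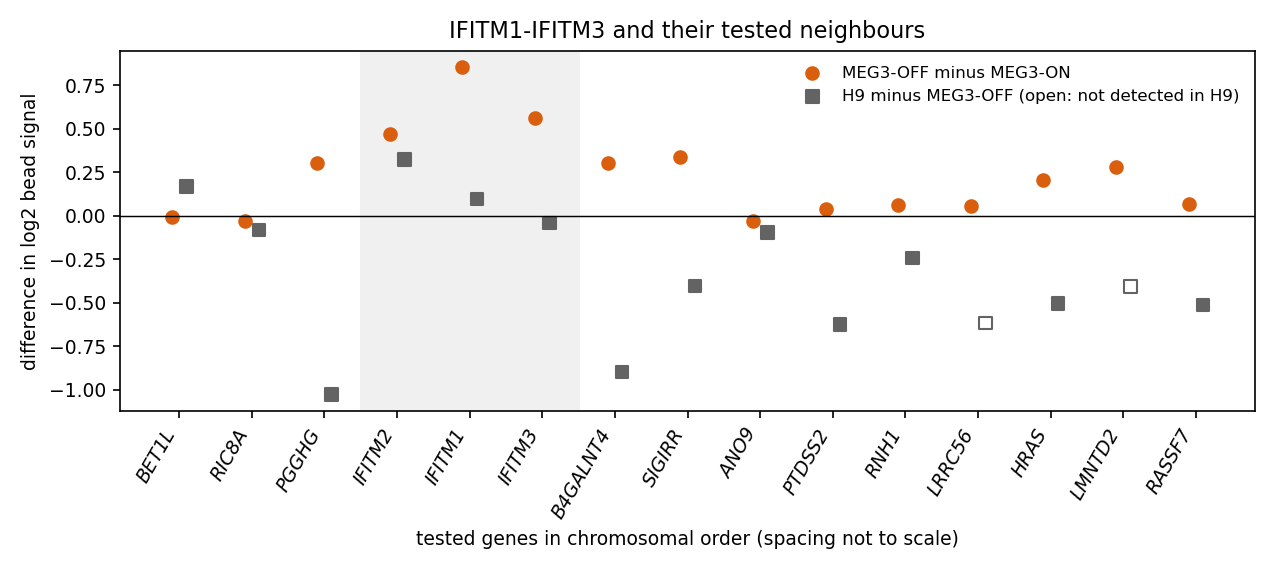
Difference in log2 bead signal (y axis) for the 12 tested neighbours and the 3 members (shaded) in chromosomal order, for MEG3-OFF minus MEG3-ON (circles) and H9 minus MEG3-OFF (squares, open for genes not detected in H9). The members have the 3 highest circles, 0.47 to 0.85, and the highest neighbour is SIGIRR at 0.34.

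Over the 11 undifferentiated arrays the members followed each other. Pearson's r was 0.932 between IFITM1 and IFITM3, 0.902 between IFITM1 and IFITM2 and 0.856 between IFITM2 and IFITM3. With the group means removed it was 0.707, 0.646 and 0.716. Among 11583 genes IFITM1 was the gene most like IFITM3, followed by GRB10 (0.924), APEX2 (0.919), ZNF622 (0.898) and SPINDOC (0.894). The genes most like IFITM1 were KAT14 (0.973), SYNGR1 (0.961), CALB2 (0.961), RRAGB (0.938) and FLOT1 (0.934), and those most like IFITM2 were AJAP1 (0.942), NUP43 (0.933), EOLA1 (0.924), FCF1 (0.908) and POP1 (0.906). With the group means removed, RRAGB fell to 0.158 against IFITM1, whereas CALB2 was at 0.909 and FLOT1 at 0.899. These values describe 11 arrays that share 3 groups, 1 chip and 1 normalization.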

How the data were processed

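Total RNA of 12 samples was hybridised to Illumina HumanHT-12 v4 bead arrays. The deposited raw table holds mean bead intensity and a detection p-value per probe, and the authors also deposited quantile normalized intensity per probe, made in Partek. Here the raw intensity was background corrected from the detection p-values and quantile normalized with neqc of limma 3.58.1 (R 4.3.3, offset 16), which gave log2 values computed from the deposited intensities. Genes took their brightest probe. Genes detected (p under 0.01) on at least 4 of 9 NTU1 arrays, or 2 of 11 undifferentiated arrays for comparisons with H9, were fitted with lmFit and eBayes and adjusted by Benjamini-Hochberg over all of them, with 0.05 as the threshold. Probes were named through the platform annotation and RefSeq, where 30113 of 47230 had 1 symbol, 8 several and 17109 none. Precision is limited by the number of arrays. EB, with 1 array, was described by a 2-fold rule over genes detected in EB or on at least 2 of 4 MEG3-ON arrays.

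The family, the lists and the rule for named genes were chosen with earlier results of these data known. From each list and comparison the text names up to 6 called genes with the largest difference and 2 with the lowest p among the rest, up to 3 in each direction in EB, and the 5 genes most correlated with each member. The lists were other IFITM genes, interferon-stimulated genes, interferon signalling, IFITM partners and modifiers, primordial germ cell genes, pluripotency markers, fibroblast and stromal, endothelial and blood, and trophoblast and amnion markers, and neighbours of the cluster. Each list's counts stand beside the shares over all genes. These were 1.85% higher and 1.74% lower in MEG3-OFF against MEG3-ON. For H9 they were 13.2% and 18.2% against MEG3-OFF, and 12% and 17.1% against MEG3-ON. In EB 9.09% were past 2-fold higher and 7.75% lower. Alternatives were other background corrections, scalings, filters, probe rules, fits, the methods' t-test and leaving out each array.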

Additional observations from a re-analysis of the deposited data

How the results depend on the processing

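No called IFITM difference changed direction under the alternatives run, while the uncalled differences of IFITM1 and IFITM3 in H9 against MEG3-OFF took either sign. In MEG3-OFF against MEG3-ON, IFITM2 passed the threshold with quantile normalization without background correction (0.46, adjusted p = 0.0250), with the authors' normalized values (0.46, adjusted p = 0.0250), with offset 50 (0.47, adjusted p = 0.0322), with median scaling (0.53, adjusted p = 0.0300), with the mean of detected probes (0.47, adjusted p = 0.0466), with a trended robust fit (0.47, adjusted p = 0.0170) and in the 3-group fit of 11 arrays (0.47, adjusted p = 0.0477). With the methods' t-test after Benjamini-Hochberg adjustment, 32 genes were called in place of 386, 14 higher and 18 lower, and IFITM1 (0.85, adjusted p = 0.0604) and IFITM3 (0.56, adjusted p = 0.141) missed the threshold. At the p and fold threshold of the methods' t-test step, without adjustment, 427 genes were called. IFITM1 was among them, while IFITM2 and IFITM3 fell short of the fold threshold. The study used its own normalization and kept only genes also called by a second test, significance analysis of microarrays. That second test was not run here, so neither the count nor these calls of members are the study's. Leaving out 1 array at a time gave differences of 0.79 to 0.94 for IFITM1, 0.39 to 0.53 for IFITM2 and 0.47 to 0.64 for IFITM3, and 108 (without MEG3-ON sample 4) to 997 genes called (without MEG3-OFF sample 5). The count also left 1.5 times the main count without MEG3-ON sample 1 (165) or 2 (166), or MEG3-OFF sample 6 (210), 7 (244) or 9 (168). IFITM3 in H9 against MEG3-ON ranged from 0.43 to 0.60 when 1 array was left out. Without the second H9 array, 500 in place of 3642 genes were called against MEG3-OFF (range 500 to 3917) and 1063 in place of 3375 against MEG3-ON (range 1063 to 3644). With median scaling the share of higher calls went from 42.0% to 30.3% against MEG3-OFF and from 41.2% to 31.8% against MEG3-ON. The cause of these changes was not tested. In EB, over the 5 processing alternatives, IFITM1 ranged from -2.84 to -2.73, and IFITM2 and IFITM3 moved by less than the MEG3-ON SD, although IFITM3 crossed 2-fold under median scaling. Without any 1 MEG3-ON array the EB difference was -2.90 to -2.75 for IFITM1, -0.77 to -0.70 for IFITM2 and -1.05 to -0.88 for IFITM3. No paired analysis was possible because samples 1 to 4 and 5 to 9 share no number and nothing ties the H9 numbers to the NTU1 ones.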
